A study of Homo sapiens with 4 samples.

Results

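The genes of heme synthesis were examined in HCT116 cells with reduced N-BLR, a long noncoding RNA whose gene lies between POC1A and ALAS1 on chromosome 3. ALAS1 encodes the first enzyme of heme synthesis. The set held ALAS1, ALAS2, ALAD, UROS, UROD, CPOX, PPOX, FECH and the heme-degrading enzyme HMOX1, and its members were all array probes, other than control spots, that carry one of these gene names. This gave 13 probes for 9 genes, out of 41000 probes and 17020 genes with a symbol.

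HCT116 is a human colon cancer cell line. Total RNA of 2 HCT116 clones carrying an N-BLR shRNA vector, #3-1 and #4-7, was hybridised on Agilent 2-colour arrays, 2 for each clone, against RNA of HCT116 cells carrying the empty vector. On all 4 arrays the labels name Cy5 as the dye of the shRNA RNA and Cy3 as that of the empty vector RNA, with no dye swap, and both comparisons share the empty vector as 1 control sample. Each shRNA group is a single clone, and the labels call its arrays biological replicates without naming separate cultures, so p-values measure only the spread between arrays, which may be technical. The sources differ on how the vectors were introduced, with lentiviral transduction in the labels and transfection in the methods. The level of N-BLR itself was not analysed here.

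Heme is made in steps shared between the mitochondrion and the cytosol. ALAS1, or the erythroid enzyme ALAS2, condenses glycine with succinyl-CoA, then ALAD, UROS and UROD help to build and trim the porphyrin ring in the cytosol, and CPOX, PPOX and FECH finish it in the mitochondrion, where FECH inserts iron. ALAS1 is the rate-limiting step outside the erythroid lineage and is held down by heme. HMOX1 opens the heme ring to give biliverdin, iron and carbon monoxide, and its gene is a classical target of NRF2 and of the heme-binding repressor BACH1.

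The sequences below are the array probes of the 4 genes that moved most, since each value rests on the transcript stretch its probe can bind. They are the sequences listed in the array files, in build hg17. The ALAS1 probes lie at chr3:52214925-52214984 and chr3:52221317-52221376 on the plus strand and the CPOX probe at chr3:99782978-99783037 on the minus strand. The UROS probe has 60 bases, and its listed positions, chr10:127476680-127486006 on the minus strand, span 9327 bases, so it bridges a gap in the genome. Of the HMOX1 probe, at chr22:34114676-34114735 on the plus strand, the first 30 bases are shown, and none of its reading frames was free of stop codons, while the ALAS1 probes each had 1 open frame. No gene annotation of this build was used here, so exons were not assigned.
ALAS1 A_23_P57877: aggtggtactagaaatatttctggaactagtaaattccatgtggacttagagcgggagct
ALAS1 A_24_P191588: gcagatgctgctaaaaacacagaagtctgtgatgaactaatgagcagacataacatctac
UROS A_23_P35609: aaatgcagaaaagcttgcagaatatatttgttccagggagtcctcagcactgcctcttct
CPOX A_23_P144179: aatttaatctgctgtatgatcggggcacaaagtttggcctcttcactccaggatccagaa
HMOX1 A_23_P120883: tggggagggaggtgtttaacggcactgtgg

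Before the results, the channels were compared, because the empty vector RNA should be alike on all arrays and the clones need not be. The data went against this. Over 28839 spots, the Cy3 signal, labelled empty vector, differed between the arrays of clone #3-1 and those of clone #4-7 by a median of 0.275 on the log2 scale, whereas the Cy5 signal, labelled clone, differed by 0.0698. The 2 arrays of a clone differed by 0.0517 to 0.0801 in Cy3 and by 0.0554 to 0.0814 in Cy5. Correlations between arrays of different clones were 0.974 to 0.979 in Cy3 and 0.994 to 0.999 in Cy5. Groups and signs are kept here as the labels give them, and "higher" and "lower" refer to the ratio of Cy5 (labelled clone) over Cy3 (labelled empty vector). If the dyes had been assigned the other way, each sign against the empty vector, that of each difference between clones and each rank would turn, while sizes and tests would not change. CDH1, the gene of E-cadherin, had a log2 ratio of -2.60 in clone #3-1 and -1.35 in clone #4-7, and VIM, the gene of vimentin, had 4.45 and 2.38. These directions are opposite to those the study describes for these 2 genes in the clones. The study reports its directions from these arrays and also from qRT-PCR and immunofluorescence.

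The cells had the markers of an epithelial line in part. Of 10 colon epithelial markers, 7 were well above background on all arrays, and CDX1, VIL1 and CDH17 were not well above background on any. Of 11 erythroid markers, 3 were above background on all arrays, as were 4 of 6 leukocyte and macrophage markers, though not the pan-leukocyte gene PTPRC, and 1 of 4 hepatocyte markers. In each channel, 68.5% to 72.6% of probe spots were well above background. In RNA from whole cultures, fewer cells expressing a gene and less RNA per cell cannot be told apart.

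Genes were called at an unadjusted limma p under 0.001, the threshold named in the methods, each gene by its brightest probe. In clone #3-1, 2 of the 9 genes were called, with UROS lower and HMOX1 higher, where 40% of all genes were called. In clone #4-7, 5 of the 9 were called, where 36.5% of all genes were called: ALAS1, FECH and HMOX1 were higher and UROS and CPOX were lower. The median log2 ratio of the 9 genes was 0.00 in clone #3-1 and 0.10 in clone #4-7, beside 0.01 and 0.02 over all genes. At an adjusted p under 0.05, 4 genes passed in clone #3-1, where 61.6% of all genes did, 8 in clone #4-7, where 57.8% did, and 7 for the difference between clones, where 48.9% did. The genes did not all move one way. The rate-limiting and the last enzyme were called higher in clone #4-7, while 2 of the steps between them were called lower. Of the higher calls, that of FECH, at a log2 ratio of 0.21, was lost under 12 of 16 alternatives in processing. That of ALAS1 was lost under 1 of 16.

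**Figure D1:**
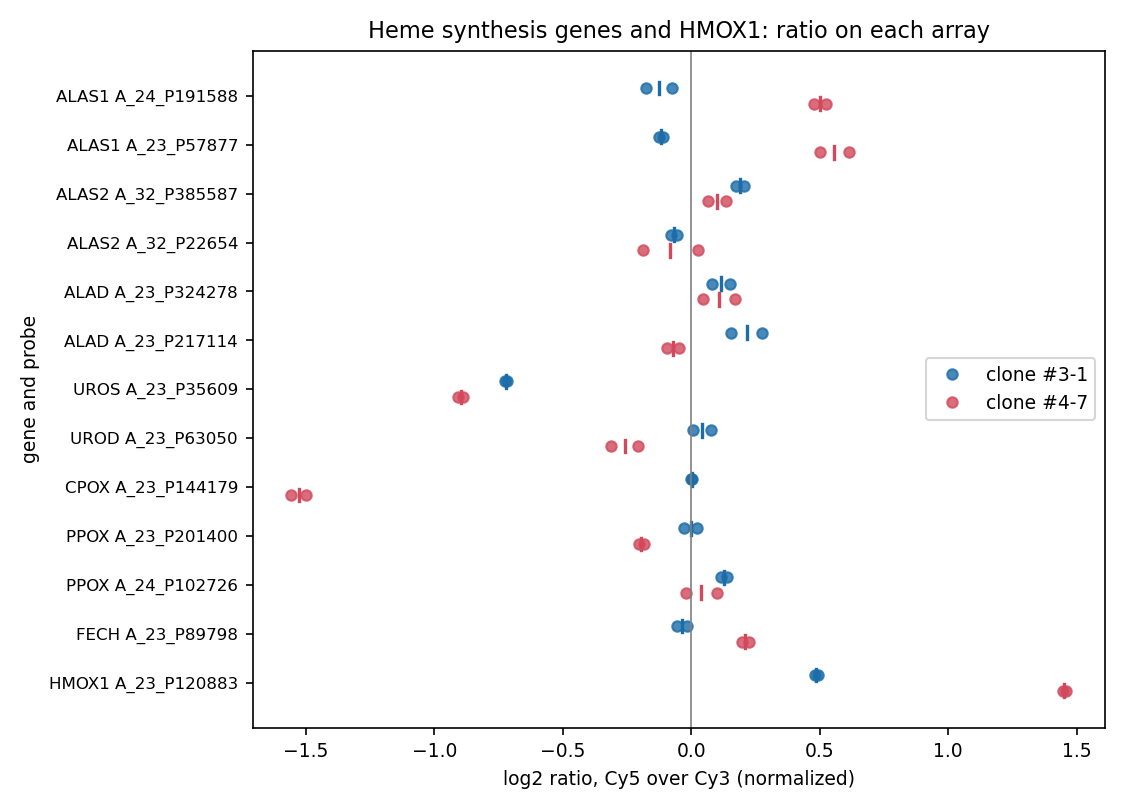
Normalized log2 ratio of Cy5 (labelled clone) over Cy3 (labelled empty vector) for the 13 probes of the 9 genes. Points are single arrays, 2 per clone, and vertical bars are their mean; CPOX at -1.53 and HMOX1 at 1.45 in clone #4-7 lie farthest from 0.

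ALAS1, the first enzyme, had log2 ratios of -0.08 and -0.18 on the arrays of clone #3-1 and 0.53 and 0.48 on those of clone #4-7 with its brighter probe, A_24_P191588. The arrays of the clones thus lay on opposite sides of 0. The mean was -0.13 ± 0.07 (SD, n = 2 arrays) in clone #3-1, with a limma adjusted p = 0.035 and no call, and 0.50 ± 0.04 in clone #4-7, a 1.42-fold ratio, with an adjusted p = 0.00027. The second probe, A_23_P57877, gave -0.11, -0.13, 0.50 and 0.62 on the same arrays, so both probes, which lie apart in the gene, gave like values. With plain background subtraction both probes missed the threshold in clone #4-7, with log2 ratios of 0.51 and 0.66.

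ALAS2, the erythroid form of the same enzyme, was at the edge of detection. Probe A_32_P385587 was well above background in Cy5 on all 4 arrays and in Cy3 on none. On the scale after loess and Aquantile its measured ratio was 1.16-fold in clone #3-1 and 1.06-fold in clone #4-7. The bound equalled this measured ratio, so it set no separate limit for a value near the floor. On the quantile-normalized scale of the fit the folds of this probe were 1.14 and 1.07. Its fitted log2 ratios were 0.20, 0.18, 0.13 and 0.07, with limma adjusted p = 0.0049 and 0.048 for the clones and no call. The other probe, A_32_P22654, was not well above background in either channel on any array.

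ALAD, which joins 2 molecules of the first product into a pyrrole, had 2 probes that differed. The brighter one, A_23_P324278, gave 0.15 and 0.08 in clone #3-1 and 0.17 and 0.05 in clone #4-7, all slightly above 0. The other, A_23_P217114, gave 0.28 and 0.16 in clone #3-1 but -0.09 and -0.05 in clone #4-7. Neither probe was called in either clone.

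UROS closes the ring of uroporphyrinogen III. Its log2 ratios were -0.72 and -0.72 in clone #3-1 and -0.89 and -0.91 in clone #4-7, so all 4 arrays were lower by a similar amount. The means were -0.72 ± 0.0045 (SD, n = 2 arrays), a ratio of 0.607, and -0.90 ± 0.01, a ratio of 0.537, with limma adjusted p = 3.9e-05 and 3.1e-05. In rank, this put UROS at percentile 2.9 of all probes in clone #3-1 and 1.6 in clone #4-7, or 97.1 and 98.4 with the dyes exchanged. UROD, the decarboxylase of the next step, had 0.01 and 0.08 in clone #3-1 and -0.31 and -0.21 in clone #4-7. Its mean of -0.26 ± 0.07 in clone #4-7 had a limma adjusted p = 0.0035 and was not called.

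CPOX, the first of the mitochondrial oxidases at the end of the pathway, differed most between the clones. Its ratios were 0.0006 and 0.0014 on the arrays of clone #3-1, at the level of the control, and -1.50 and -1.56 on those of clone #4-7. The mean in clone #4-7 was -1.53 ± 0.04 (SD, n = 2 arrays), a ratio of 0.347 with a limma adjusted p = 1.4e-05, at percentile 0.4 of all probes, or 99.6 with the dyes exchanged. In clone #3-1 the limma adjusted p was 0.98, with a 95% interval of -0.08 to 0.08 on the log2 scale. This interval covers only the spread between arrays under the main processing. With Feature Extraction processed signals the value lay below it, as given in the section on processing. PPOX, the next oxidase, had -0.03, 0.02, -0.20 and -0.18 with its brighter probe, A_23_P201400, whose mean in clone #4-7 missed the threshold, with a limma adjusted p = 0.0039. Its dimmer probe, A_24_P102726, gave 0.12, 0.14, 0.10 and -0.02 and did not repeat the lower values.

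FECH, ferrochelatase, had -0.02 and -0.06 in clone #3-1 and 0.20 and 0.22 in clone #4-7. The mean in clone #4-7 was 0.21 ± 0.02 (SD, n = 2 arrays), a 1.16-fold ratio, with a limma adjusted p = 0.0025. The call was lost when any one of the 4 arrays was left out, with ratios of 0.20 to 0.22, and under 12 of 16 alternatives in all.

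HMOX1, which breaks heme down, was higher on every array. It was printed as 10 spots per array, whose log2 ratios had an SD of 0.03 to 0.05 within an array. The array values were 0.48 and 0.49 in clone #3-1 and 1.46 and 1.45 in clone #4-7. The means were 0.49 ± 0.0078 (SD, n = 2 arrays), a 1.4-fold ratio, and 1.45 ± 0.009, a 2.74-fold ratio, with limma adjusted p = 0.00011 and 1.3e-05. In clone #4-7 this was percentile 99.9 of all probes and in clone #3-1 percentile 94.3, or 0.1 and 5.7 with the dyes exchanged.

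The clones were then set against each other, as the contrast of clone #3-1 minus clone #4-7. Of the 9 genes, 3 were called, where 27.9% of all genes were called: CPOX had a larger ratio in clone #3-1, and ALAS1 and HMOX1 had a larger ratio in clone #4-7. With an intensity trend in the prior variance, 7 genes were called. The 27.9% belongs to the main setting, and the share of all genes called with the trend is not reported here. The CPOX difference was 1.53 (95% interval 1.42 to 1.64), with a limma adjusted p = 4.9e-05. The HMOX1 difference was -0.96 (-1.06 to -0.87), with an adjusted p = 9.9e-05 by limma, and the ALAS1 difference was -0.63 (-0.76 to -0.49), with an adjusted p = 0.00066. The second ALAS1 probe gave -0.67. The ALAS1 difference missed the threshold with both probes after plain background subtraction, at -0.64 and -0.79, and on the deposited log10 ratios, at -0.64 and -0.79, and with the brighter probe at a normexp offset of 0. UROS differed by 0.18, with an interval of 0.08 to 0.28, and missed the threshold (limma adjusted p = 0.018).

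**Figure D2:**
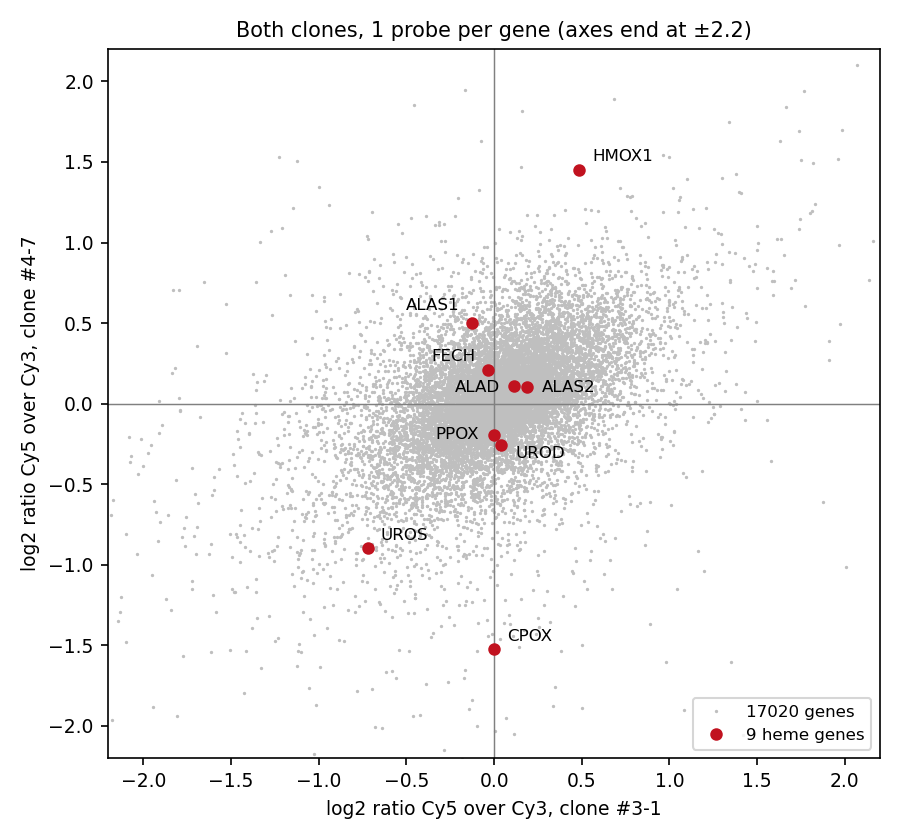
Mean log2 ratio in clone #3-1 (horizontal) and clone #4-7 (vertical), Cy5 over Cy3, for 17020 genes (grey; 77 lie outside the axes) and the 9 heme genes (red). Both axes hold the same control RNA, so the tilt of the cloud is not a measure of agreement; CPOX lies on the vertical axis line at -1.53, and UROS and HMOX1 lie in opposite corners.

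The single channels show where these contrasts arose. The processed intensity of CPOX in Cy3 was 6628 and 6386 on the arrays of clone #3-1 and 17750 and 16632 on those of clone #4-7, while in Cy5 it stayed between 5396 and 6184 on all 4 arrays. For HMOX1, Cy3 was 6388 and 6158 against 2825 and 2700, and Cy5 lay between 7443 and 8999. The same held for ALAS1, with Cy3 at 3432 and 3510 against 1994 and 1963, and Cy5 between 2800 and 3276. UROS had little of it, with Cy3 between 1515 and 1662 and Cy5 between 769 and 976. Thus for CPOX, HMOX1 and ALAS1 the difference between clones was carried by the channel labelled as the shared control, as it was over all spots. Which RNA each dye held on each array was not tested.

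**Figure D3:**
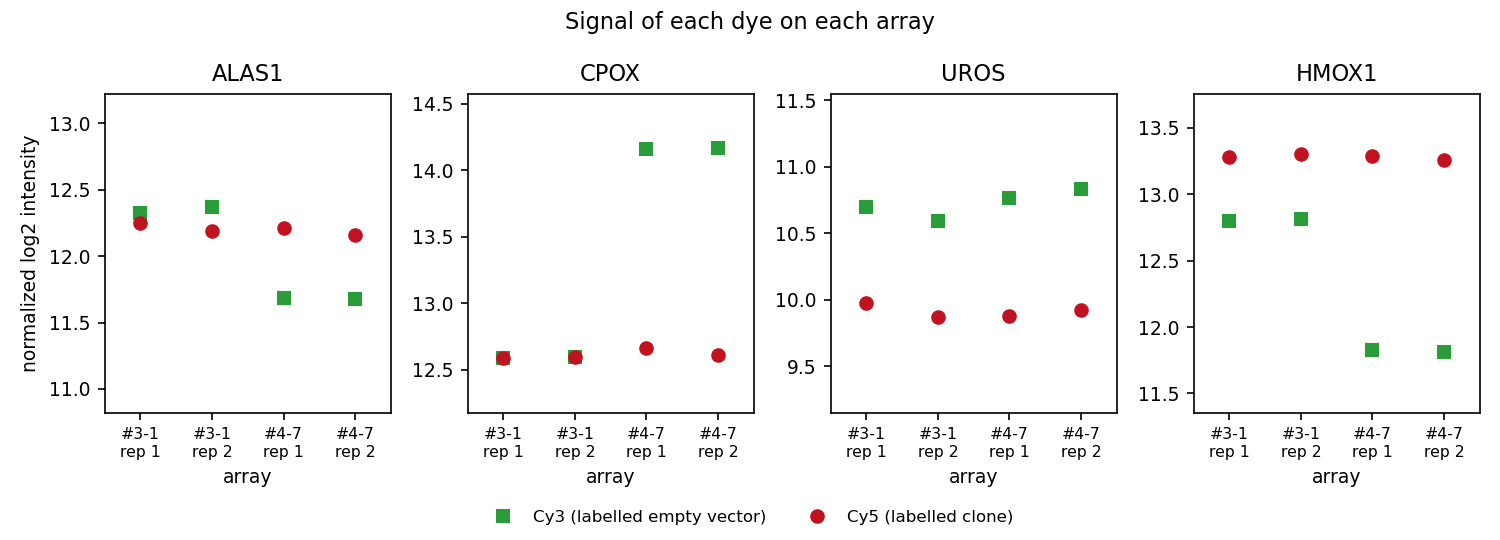
Normalized log2 intensity of each dye on each array for 4 genes; green squares are Cy3 (labelled empty vector), red circles are Cy5 (labelled clone), and all panels span the same log2 range. Cy5 is nearly level over the 4 arrays in each panel, and Cy3 changes between the arrays of the clones for ALAS1, CPOX and HMOX1.

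The promoters of ALAS1 and CPOX are printed because these genes were called in opposite directions in clone #4-7. The RefSeq table for GRCh38.p14 held a window of 300 bases, 250 before and 50 after the start, for 7 of the 9 genes. Windows were searched on both strands for the letters of the GC box (GGGCGG), the inverted or direct box CCAAT, an E-box written as CACGTG, the cyclic AMP response element TGACGTCA, the core of the antioxidant response element, TGANNNNGC, and a GATA type motif, AGATAA. Capitals mark the matches in the 250 bases before the start, none of which overlap, at chr3:52197833-52198082 on the plus strand for ALAS1 and chr3:98593612-98593861 on the minus strand for CPOX.
ALAS1: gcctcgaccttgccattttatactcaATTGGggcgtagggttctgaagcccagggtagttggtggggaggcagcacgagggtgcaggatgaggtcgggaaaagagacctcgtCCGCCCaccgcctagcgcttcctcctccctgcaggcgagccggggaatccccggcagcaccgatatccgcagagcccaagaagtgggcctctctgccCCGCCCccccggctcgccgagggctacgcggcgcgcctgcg
CPOX: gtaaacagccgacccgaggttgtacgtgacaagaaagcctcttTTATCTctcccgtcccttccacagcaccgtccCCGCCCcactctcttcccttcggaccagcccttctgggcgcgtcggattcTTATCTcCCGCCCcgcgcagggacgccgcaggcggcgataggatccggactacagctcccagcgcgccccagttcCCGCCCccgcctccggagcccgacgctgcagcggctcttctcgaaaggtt
ALAS1 had 2 GC boxes and 1 CCAAT, and CPOX had 3 GC boxes and 2 AGATAA matches. In the bases after the start, CPOX also had 1 TGANNNNGC, which 41.8% of the 35116 promoters in the table hold. GC boxes were in 45% of these promoters, CCAAT in 34.6%, AGATAA in 10.3%, the E-box in 7.3% and the cyclic AMP response element in 1.8%. A match is a run of letters and not a site shown to be bound.

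The genes around the pathway were described from lists chosen with earlier results of these data known. Most list genes were well above background in Cy3 or Cy5 on every array. These were 24 of 24 heme handling genes, 22 of 24 iron genes, 14 of 18 regulators, 25 of 25 NRF2 targets and 29 of 38 hemoprotein genes. The shares of all genes given beside the lists also include genes not above background, so the 2 are not fully alike. Of 24 genes that carry, bind or modify heme, its precursors or mitochondrial iron, 2 were higher and 10 lower in clone #3-1, against 21.2% and 18.8% of all genes, and 4 were higher and 5 lower in clone #4-7, against 20.3% and 16.2%. Their median log2 ratio was -0.14 in clone #3-1 and 0.01 in clone #4-7. SLC25A37, mitoferrin, which brings iron into the mitochondrion, was lower at -0.47 and -0.97 in clones #3-1 and #4-7. TSPO, a mitochondrial porphyrin-binding protein, was at -0.47 and -0.39, and the heme-binding protein HEBP1 at -0.23 and -0.26. PGRMC1, a heme-binding partner of ferrochelatase, was higher at 0.33 and 0.28. The clones had opposite signs for BLVRB, a biliverdin reductase, at -0.65 and 0.25, and for ABCG2, a porphyrin exporter, at -0.37 and 0.92, all called by limma.

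Of 24 iron genes, 1 was higher and 6 lower in clone #3-1 and 3 were higher and 2 lower in clone #4-7, where 21.2% of all genes were higher and 18.8% lower in clone #3-1 and 20.3% and 16.2% in clone #4-7. HFE, which restrains iron uptake, was lower at -0.36 and -0.50, as was NCOA4, the receptor that takes ferritin to the lysosome, at -0.35 and -0.27, while the iron chaperone PCBP1 was higher at 0.41 and 0.26. FTL and SLC40A1 were chosen after their values were seen. FTL, the ferritin light chain, had -0.0047 in clone #3-1 with no call and 0.79 in clone #4-7. SLC40A1, the iron exporter ferroportin, was not well above background in Cy5 on any array. On the scale after loess and Aquantile it was at least 4.2-fold lower in clone #3-1, where the measured fold was 4.51. In clone #4-7 the measured ratio on that scale was 1.13-fold lower, and the bound equalled it. On the quantile-normalized scale of the fit the folds were 4.03 and 1.16.

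Among 18 regulators of these genes, 6 were higher and 4 lower in clone #3-1 (21.2% and 18.8% of all genes) and 1 was higher and 4 lower in clone #4-7 (20.3% and 16.2% of all genes). The small MAF proteins MAFF and MAFK, partners of NRF2 and BACH1 on DNA, were lower in both clones, MAFF at -0.38 and -1.28 and MAFK at -0.41 and -0.45. The third small MAF gene, MAFG, named after its values were seen, was called higher in clone #3-1 at 0.30 and was not called in clone #4-7, at 0.08, so the family did not move one way. NRF1, a respiratory gene activator, was higher at 0.38 and 0.37 and FOXO1 was lower at -0.58 and -0.59. EGR1, an immediate early factor, was higher in clone #3-1 at 0.92 and lower in clone #4-7 at -2.95. BACH1 and NFE2L2, the gene of NRF2, named after their values were seen, were called in clone #3-1 at 0.44 and 0.56 and not in clone #4-7, at 0.15 and 0.17.

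HMOX1 was read beside 25 other NRF2 target genes. In clone #3-1, 9 were higher and 7 lower, and in clone #4-7, 11 were higher and 7 lower, with medians of 0.08 and 0.13. Of all genes, 21.2% were higher and 18.8% lower in clone #3-1, and 20.3% and 16.2% in clone #4-7. All 25 were above background on every array, whereas these shares also include genes not above background. AKR1B10, SLC7A11 and GCLM, of aldehyde reduction, cystine uptake and glutathione synthesis, were higher in each clone, from 0.59 for GCLM to 1.78 for SLC7A11 in clone #3-1 and from 0.61 for SLC7A11 to 1.34 for AKR1B10 in clone #4-7. AKR1C3 was lower at -1.84 and -1.28 and the exporter ABCC2 at -1.05 and -2.27. NQO1, the quinone reductase, was higher at 1.09 in clone #3-1 and lower at -0.45 in clone #4-7, as was EPHX1 at 0.50 and -0.39, whereas TXNRD1 was at -0.84 and 0.20 and SRXN1 at -0.25 and 0.28.

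Of 38 genes whose products carry heme or work with heme proteins, 6 were higher and 10 lower in clone #3-1 (21.2% and 18.8% of all genes) and 6 higher and 6 lower in clone #4-7 (20.3% and 16.2% of all genes). The cytochrome P450 genes CYP2J2 and CYP24A1 were lower, CYP2J2 at -1.41 and -1.14 and CYP24A1 at -0.61 and -2.78, and CYP26A1 was higher at 0.58 and 0.45. CAT, catalase, was lower at -0.81 and -0.69, as was CYBA, a cytochrome b subunit, at -0.41 and -0.27, and CYCS, cytochrome c, was higher at 0.31 and 0.33.

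**Figure D4:**
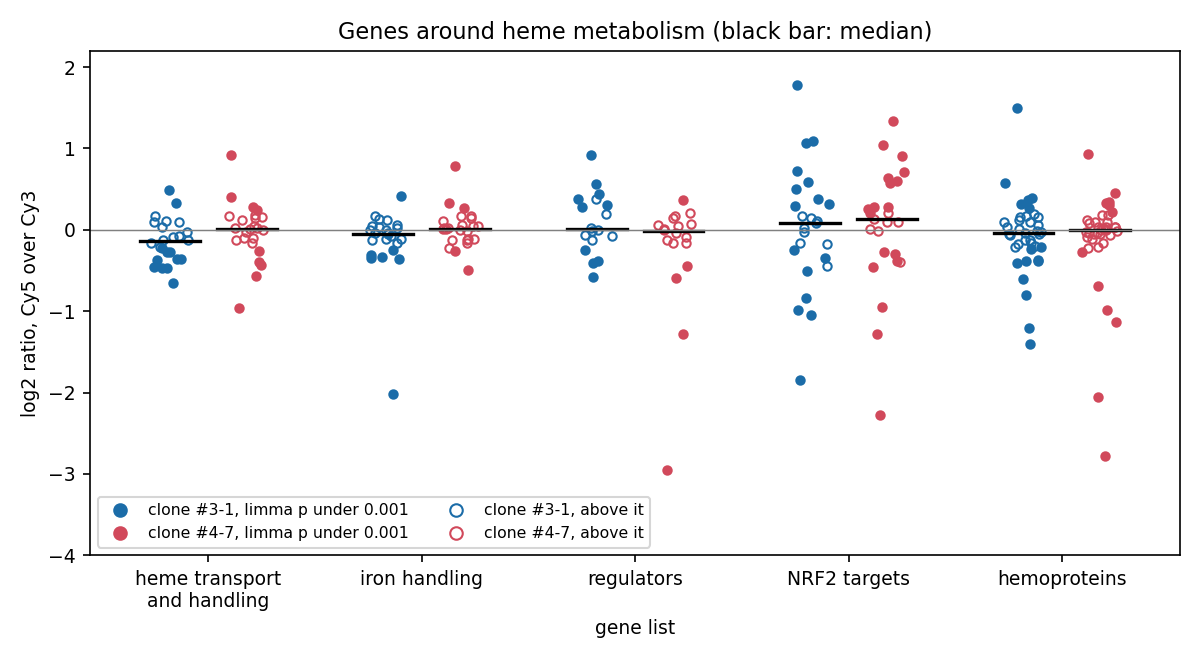
Log2 ratio of Cy5 over Cy3 for each gene of 5 lists around heme metabolism, by its brightest probe, in clone #3-1 (blue) and clone #4-7 (red). Filled points had limma p under 0.001, open points did not, and black bars mark medians; all medians lie between -0.14 and 0.13.

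ALAS1 was also set beside its neighbours on chromosome 3. Within 250 kb, 16 other genes had a brightest probe well above background in Cy3 or Cy5 on every array. Only these were counted, whereas the shares of all genes given below also include genes not above background. In clone #3-1, 3 were higher and 7 lower, with a median of -0.08 and a range of -1.51 to 0.57, and in clone #4-7, 2 were higher and 7 lower, with a median of -0.22 and a range of -1.53 to 0.58. Of all genes, 21.2% were higher and 18.8% lower in clone #3-1, and 20.3% and 16.2% in clone #4-7. ALAS1 in clone #4-7, at 0.50, lay near the top of its range, and would lie near the bottom if the dyes were exchanged. POC1A, a centriolar gene and the nearest upstream gene of those counted, was called higher in clone #3-1 at 0.52. It had 0.19 in clone #4-7, with a limma adjusted p = 0.0034 and no call. TLR9, the nearest downstream gene of those counted, a receptor of unmethylated DNA, had -0.14 and -0.08, with no call.

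Over the 4 arrays, the genes with the pattern most like ALAS1 among 12600 candidates were TMC7, GGA1 and RBPMS, at Euclidean distances of 0.05, 0.06 and 0.07 on the log2 scale. The values of TMC7 were -0.09, -0.13, 0.53 and 0.45.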

How the data were processed

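Per the labels, RNA of clones #3-1 and #4-7 carried Cy5 and empty vector RNA carried Cy3. The authors deposited the mean spot intensity and local background intensity of each channel from Agilent Feature Extraction (version 8.5.1.1 in the submitters' processing notes, 9.5.3.1 in the file headers), with the processed intensity and the log10 ratio, and a table of log10 ratios within 0.005 of these. The deposited files also hold flags for outliers and for spots well above background. The 87 to 125 outlier spots per array were left out.

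With R 4.3.3 and limma 3.58.1, intensities were background-corrected (normexp, offset 50), loess was applied within arrays and quantile normalization between them, and spots of a probe were averaged. A linear model with 1 term per clone was fitted over 4 arrays, followed by empirical Bayes statistics, with Benjamini-Hochberg adjustment over 41000 probes. The control is 1 sample, so its own spread does not enter these tests. The fit was tested on simulated data. Symbols were matched to 25751 probes, and the brightest probe stood for a gene. Bounds for probes not well above background in 1 channel used the lowest signal well above background on each array, after loess and Aquantile. They are open to dye bias. For ALAS2 in both clones and SLC40A1 in clone #4-7 the floor equalled the signal of the probe itself, so the bound was the measured ratio. Members, lists and the naming rule were chosen with earlier results of these data known. The rule named all member probes, up to 6 list genes called in both clones with one sign and up to 4 with opposite signs, neighbours of ALAS1 within 250 kb and the 3 genes most like ALAS1. Some genes that the rule or the lists cover are not reported here. All 4 arrays were on 1 slide. The number of arrays limits the precision. Alternatives covered background correction, normalization, filters, the variance prior, the replicate block, the probe per gene and leaving out each array.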

Additional observations from a re-analysis of the deposited data

Results flagged for a closer look

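The ratios against the empty vector differed between the clones, by limma's test of the difference itself, for 3 of the 9 genes. Of all genes, 27.9% were called in this test. For ALAS1 the log2 ratio of clone #3-1 minus that of clone #4-7 was -0.63 with probe A_24_P191588 and -0.67 with probe A_23_P57877. For CPOX it was 1.53. For HMOX1 it was -0.96.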

How the results depend on the processing

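The calls of CPOX in clone #4-7 and of UROS and HMOX1 in both clones held under all 16 alternatives, with log2 ratios of -1.64 to -1.50 for CPOX, -0.78 to -0.72 and -0.98 to -0.89 for UROS, and 0.48 to 0.50 and 1.42 to 1.47 for HMOX1. Clone #4-7 had 3 called genes with plain background subtraction, the difference between clones had 7 with an intensity trend in the prior variance, and an adjusted p under 0.05 as the threshold gave 4 genes in clone #3-1, 8 in clone #4-7 and 7 for the difference. The cause was not tested. Apart from the adjusted p threshold, the shares of all genes called under the alternatives are not reported here, so the counts under them have no background. Without quantile normalization between arrays, UROD at -0.33 and PPOX A_23_P201400 at -0.23 passed in clone #4-7 and FECH did not. Without any one array, clone #3-1 had 2 called genes, clone #4-7 had 4 and the difference had 3.

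Values turned sign only where the main value was uncalled and near 0. With Feature Extraction processed signals, CPOX was -0.10 and PPOX A_23_P201400 was 0.037 in clone #3-1 and the ALAD A_23_P324278 difference was -0.075. The authors' table gave the same 3 values and, for ALAS2 A_32_P22654, a ratio of 0 in clone #3-1, clone #4-7 and their difference. With Aquantile and with no normalization between arrays, PPOX A_23_P201400 was 0.0056 in clone #3-1 and PPOX A_24_P102726 was -0.0006 in clone #4-7. Plain subtraction gave a difference of -0.0007 for ALAS2 A_32_P22654. Leaving out each array in turn gave -0.030 to 0.024 for PPOX A_23_P201400 in clone #3-1, -0.022 to 0.098 for PPOX A_24_P102726 and -0.19 to 0.024 for ALAS2 A_32_P22654 in clone #4-7, and differences of -0.053 to 0.069 for ALAD A_23_P324278 and -0.092 to 0.12 for ALAS2 A_32_P22654.

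Same-numbered arrays did not deviate together (r = -0.01 over 40940 probes), so no shared effect of the numbers was seen. This correlation of normalized ratios between 2 clones cannot show whether samples were prepared in pairs. With the replicate block 2, 5 and 3 genes were called, FECH being lost and UROD gained in clone #4-7. The slide as a block was not run, since all arrays share 1 slide.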

Other observations

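The neighbourhood of CPOX was described after its values were seen. Within 1000 kb, 8 other genes had a brightest probe well above background in Cy3 or Cy5 on every array, and only these were counted. Of all genes, 20.3% were higher and 16.2% lower in clone #4-7, which is the background for the clone #4-7 counts given here. It also includes genes not above background. In clone #4-7, 3 of the 8 were lower, CLDND1, a claudin-like membrane protein, at -0.72, ST3GAL6, a sialyltransferase, at -0.80 and DCBLD2, a membrane receptor, at -0.66, and 1 was higher. The limma adjusted p-values of these 3 were 6.4e-05, 3.9e-05 and 0.00014. In clone #3-1, 4 of the 8 were called higher and 1 lower, where 21.2% and 18.8% of all genes were. The lower gene there was CLDND1, at -0.32. Within 1000 kb of UROS, 4 of 9 genes detected in the same way were higher and 0 lower in clone #4-7, where UROS itself was lower. In clone #3-1, where UROS was also lower, 2 of the 9 were higher and 2 lower.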
